A study of Mus musculus with 4 samples.

Results

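The 9 membrane adenylyl cyclases, Adcy1 to Adcy9, were followed in 2 B-cell lymphoma lines and in 2 samples of normal B220+ splenocytes on single-colour mouse expression arrays. Every non-control probe carrying the name of an isoform was taken, which gave 16 of 41021 probes, for 9 of 27745 gene names on the array. The lines were established independently from mice transgenic for dopamine receptor 3, and the splenocytes came from C57BL/6N mice; strain C57BL/6N and female sex are given for all 4 samples. B220 is a surface antigen by which B cells are taken from spleen, although it is also found on some other cells. Each line lay on 1 array. The sources used here do not give the promoter of the transgene, the age of the mice or whether animals were pooled. The lines are separate lines, while nothing says that the splenocyte samples are biological replicates. The p-values therefore reflect the spread among these 4 samples alone, part of which may be technical. The groups differ at once in malignancy, in growth as a cell line, in selection from spleen and in the mice of origin, and these cannot be told apart.

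Adenylyl cyclases make the second messenger cyclic AMP from ATP at the inner face of the plasma membrane. Gs-coupled receptors raise their activity through the stimulatory alpha subunit, and Gi-coupled receptors, among them dopamine receptor 3, lower it. The isoforms are grouped by their other inputs: Adcy1, Adcy3 and Adcy8 respond to calcium and calmodulin, Adcy2, Adcy4 and Adcy7 are stimulated by G protein beta-gamma subunits, Adcy5 and Adcy6 are inhibited by Gi and by calcium, and Adcy9 is set apart by its weak response to forskolin. In lymphocytes cyclic AMP acts mainly through protein kinase A and restrains activation.

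Promoter sequences of the isoforms that changed are shown because these isoforms moved in opposite directions. RefSeq windows of 300 bases (build GRCm38.p6, 250 bases before to 50 after a transcript start, in the direction of the gene) were held for 7 of the 9 isoforms, not for Adcy6 and Adcy8. Capitals mark GGGCGG, the GC box, TGACG, the core of the cyclic AMP response element, and CACGTG, an E-box, on either strand. The windows are chr16:4420449-4420748 for Adcy9 (minus strand), which was higher in the lines, and chr12:4133147-4133446 for Adcy3, chr8:88282742-88283041 for Adcy7 and chr8:88293954-88294253 for a further start of Adcy7 (all plus strand), which were lower.
Adcy9: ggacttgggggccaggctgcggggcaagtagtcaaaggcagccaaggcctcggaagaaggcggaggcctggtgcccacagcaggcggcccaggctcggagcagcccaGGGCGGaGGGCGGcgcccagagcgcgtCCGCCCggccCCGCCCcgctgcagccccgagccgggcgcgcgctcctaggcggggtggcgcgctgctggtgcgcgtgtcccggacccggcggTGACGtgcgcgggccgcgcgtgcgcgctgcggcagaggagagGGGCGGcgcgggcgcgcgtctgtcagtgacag
Adcy3: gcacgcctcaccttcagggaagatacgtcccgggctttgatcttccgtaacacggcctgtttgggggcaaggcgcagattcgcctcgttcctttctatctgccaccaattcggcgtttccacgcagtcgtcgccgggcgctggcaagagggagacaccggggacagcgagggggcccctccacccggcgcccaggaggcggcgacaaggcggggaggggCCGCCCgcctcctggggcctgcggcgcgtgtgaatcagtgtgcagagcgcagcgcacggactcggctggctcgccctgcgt
Adcy7: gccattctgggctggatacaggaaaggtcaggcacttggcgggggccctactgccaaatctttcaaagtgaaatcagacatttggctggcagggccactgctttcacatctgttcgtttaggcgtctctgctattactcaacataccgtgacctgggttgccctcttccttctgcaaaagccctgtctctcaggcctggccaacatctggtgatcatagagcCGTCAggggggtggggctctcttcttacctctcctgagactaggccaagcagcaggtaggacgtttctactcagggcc
Adcy7, further start: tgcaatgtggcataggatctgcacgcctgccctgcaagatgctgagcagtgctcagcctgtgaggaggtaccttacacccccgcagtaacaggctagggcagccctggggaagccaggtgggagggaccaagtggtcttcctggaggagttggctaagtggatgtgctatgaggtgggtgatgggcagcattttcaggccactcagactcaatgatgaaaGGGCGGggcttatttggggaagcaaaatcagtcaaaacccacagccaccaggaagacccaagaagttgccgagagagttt

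The Adcy9 window held 5 GC boxes and a TGACG beginning at position -24 from the start, and 42 CG pairs, more than in 97.0% of all promoter windows. The Adcy3 window held 1 GC box and 33 CG pairs, and a second Adcy3 window, not printed, held none of the motifs and 7 CG pairs. The printed Adcy7 windows held 1 TGACG at position -28 and 1 GC box at position -30, with 6 and 4 CG pairs, and the remaining Adcy7 window, not printed, held neither. Many GC boxes and CG pairs were not particular to Adcy9. Among isoforms not called or not tested, the Adcy1 window held 5 GC boxes, 1 E-box and 37 CG pairs. The Adcy5 window held 4 GC boxes and 44 CG pairs, more than in 97.8% of windows. For Adcy2 these were 3 and 32, and the Adcy4 window held 16 CG pairs and no GC box. No isoform's window held the full response element TGACGTCA, which contains TGACG and was found in 1.79% of 32851 windows. TGACG was found in 20.8%, the GC box in 35.7% and the E-box, which none of the printed windows held, in 7.15% of them. These matches describe letters and no binding was measured.

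The levels below are log2 processed signals relative to the 75th percentile of the same array. They compare samples for 1 probe, and not probes with each other, since each probe has its own brightness. A probe counted as well above background by the flag of the scanner software, and was tested when that held on at least 2 of 4 arrays. This left 8 of the 16 cyclase probes, for 5 of the 9 isoforms, beside 27402 of all 41021 probes. Differences are lines minus splenocytes, tested with limma's two-sided moderated test, with p-values adjusted by Benjamini-Hochberg over all tested probes and called under 0.05. Of all tested probes 64.8% were called, 32.3% higher and 32.5% lower in the lines, so that a call alone sets no probe apart. Of the 8 cyclase probes 2 were called higher, 5 lower and 1 was not called. With 1 probe for each gene name, Adcy6 and Adcy9 were higher, Adcy3 and Adcy7 lower and Adcy1 not called, beside 30.7% of all gene names called higher and 32.8% lower. In 7 of the 8 probes the groups did not overlap, beside 85.6% of all tested probes, and likewise in 4 of the 5 isoforms, beside 85% of gene names.

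**Figure D1:**
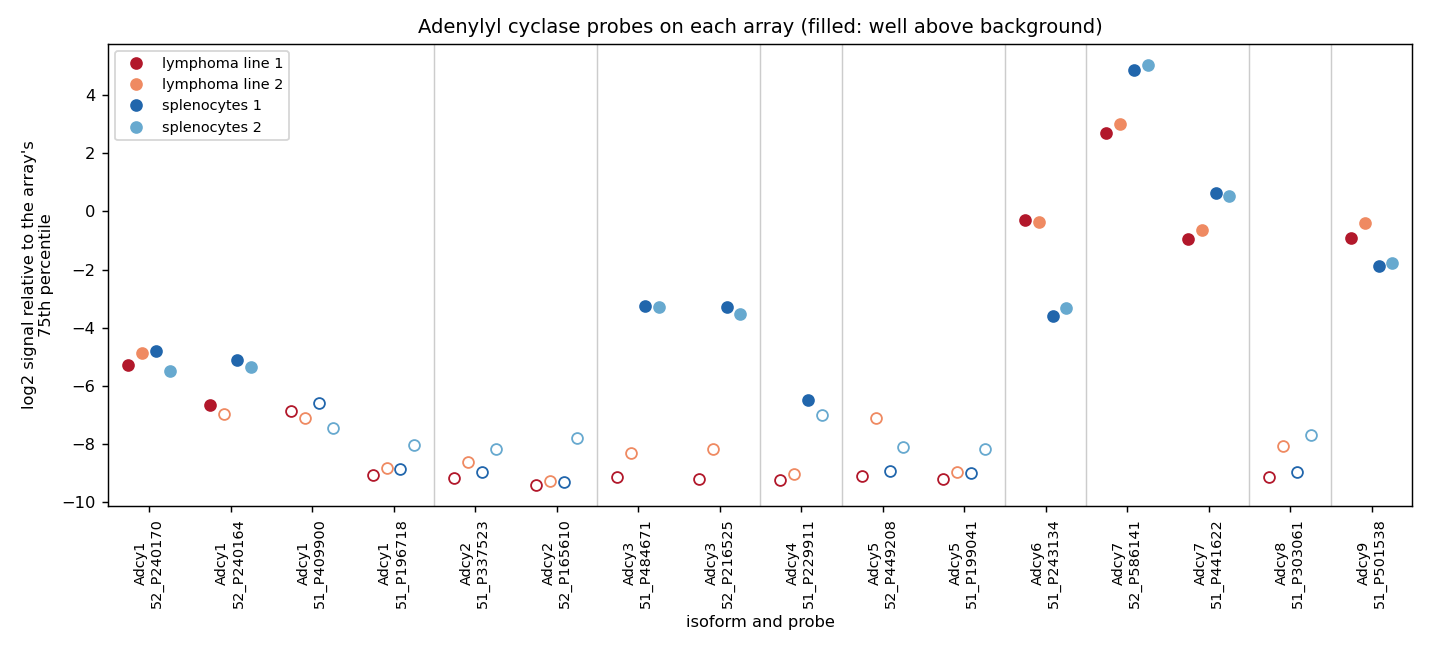
Log2 signal relative to the array's 75th percentile (vertical axis) of the 16 cyclase probes (horizontal axis) on each of the 4 arrays, lymphoma lines in red and splenocytes in blue; filled points were well above background and open points were not. Adcy6 and Adcy9 lie higher in both lines than in both splenocyte samples, Adcy3 and Adcy7 lower, and the probes of Adcy2, Adcy5 and Adcy8 have open points only.

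Adcy6, a cyclase that Gi and calcium inhibit, was higher in the lines. Its probe lay at -0.29 and -0.38 in lines 1 and 2, against -3.61 and -3.33 in splenocyte samples 1 and 2. The lines lay within 0.08 of each other and well apart from the splenocytes, all 4 signals being well above background. The mean was -0.33 ± 0.06 in the lines and -3.47 ± 0.20 in the splenocytes (SD, n = 2 each). The difference was 3.14 ± 0.17 (SE), an 8.80-fold rise (limma adjusted p = 0.000443; 95% interval 2.68 to 3.60). Only 3.64% of all tested probes had a higher difference. With normexp background correction, which here added an offset of 50 to each signal, the difference was 2.35 (adjusted p = 0.000651). The array's annotation (build mm8) places 15 bases of the Adcy6 probe, on chromosome 15 from 98418007 to 98418021, minus strand, so most of its letters have no position there. Adcy6 has no other probe against which this value could be set.

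Adcy5, the closest relative of Adcy6, was not measured above background. Both of its probes (mm8, chromosome 16, 35219324 to 35219383 and 35219384 to 35222052) were not well above background on any array. The first of these gave processed signals of 2.06 and 9.49 in the lines, against 2.23 and 1.90 in the splenocytes. Line 2 was the brightest of the 4 and still carried no flag. The other probe stayed between 1.78 and 2.63 in all samples.

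Adcy9, a broadly expressed cyclase, was moderately higher in the lines. It lay at -0.93 and -0.42 in lines 1 and 2, against -1.87 and -1.78 in the splenocyte samples. The lines differed from each other by 0.52, a gap that 20.0% of all tested probes exceeded, and both stood above both splenocyte samples. The mean was -0.67 ± 0.36 in the lines and -1.82 ± 0.06 in the splenocytes (SD, n = 2 each). The difference was 1.15 ± 0.22 (SE), a 2.22-fold rise (limma adjusted p = 0.0111; 95% interval 0.55 to 1.75). Of all tested probes 20.7% had a higher difference. Without splenocyte sample 1 the difference was 1.11 and the call was lost (adjusted p = 0.0533; range over all alternatives 0.00210 to 0.0533). The probe lies on chromosome 16 (mm8, 4203015 to 4203074, minus strand).

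Adcy7, the beta-gamma-stimulated isoform known from blood cells, was lower in the lines at both of its probes. The brighter probe (mm8, chromosome 8, 91219863 to 91219922) lay at 2.69 and 3.01 in lines 1 and 2, against 4.87 and 5.03 in the splenocyte samples. It was well above background on all 4 arrays, and each line lay below each splenocyte sample. Its mean was 2.85 ± 0.23 in the lines and 4.95 ± 0.11 in the splenocytes (SD, n = 2 each), a fall of 4.28-fold (difference -2.10 ± 0.18, SE; limma adjusted p = 0.00125).

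The other Adcy7 probe (91219007 to 91219066), 796 bases away, lay at -0.95 and -0.65 in the lines, against 0.62 and 0.53 in the splenocytes. It fell by 1.37 ± 0.17 on the log2 scale (SE), or 2.59-fold (limma adjusted p = 0.00319), a smaller value than that of the brighter probe. The difference between the probes was not tested. A further probe carries only the name of a cDNA clone, AK012436, which the array's annotation describes as an adenylate cyclase 7 product, and was therefore no member by name. It lies 21938 bases from the nearer member probe (mm8, chromosome 8, 91197009 to 91197068). It lay at -1.92 and -1.53 in the lines, against 1.73 and 1.97 in the splenocytes. All 4 signals were well above background and the difference was -3.57 ± 0.21 (SE; limma adjusted p = 0.000505), 11.9-fold lower in the lines. The probes of the locus thus share a direction and range from 2.59-fold to 11.9-fold.

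Adcy2 and Adcy4, the other isoforms stimulated by beta-gamma subunits, were dim. Both Adcy2 probes (mm8, chromosome 13, 69088168 to 69088227 and 69093254 to 69098310, minus strand) were not well above background on any array, with processed signals of 1.67 to 3.33 in the lines and 1.70 to 2.31 in the splenocytes. The Adcy4 probe (mm8, chromosome 14, 54723238 to 54723297, minus strand) gave processed signals of 1.85 and 2.50 in the lines, against 11.99 and 4.002 in the splenocytes. Only splenocyte sample 1 was well above background, so Adcy4 was not tested. With no filter on dim probes the difference was -2.39 ± 0.26 (SE, limma adjusted p = 0.00638), and 3 of the 4 signals behind it were not well above background.

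Adcy3, a calcium-responsive cyclase best known from olfactory neurons and fat tissue, reached detectable levels in both splenocyte samples, while no line did. Its brighter probe (mm8, chromosome 12, 4212753 to 4212812) lay at -9.13 and -8.32 in lines 1 and 2, against -3.26 and -3.29 in the splenocyte samples. In processed signal this is 1.999 and 4.13 in the lines, against 112.8 and 52.6 in the splenocytes. Neither line was well above background and both splenocyte samples were. Adcy3 thus passed the filter through the splenocytes alone, and a probe that does so had to differ. Its level was 14.6-fold lower in the lines by a bound that sets the splenocyte mean against a floor. This floor is the lowest signal well above background on each line's array. The bound is approximate, since a spot can exceed the floor and still carry no flag. An Adcy1 probe did so in line 1, with a signal of 9.68 where the floor was 6.83. The fitted difference was -5.45 ± 0.31 (SE; limma adjusted p = 0.000476). That fitted value rests on line signals that were not well above background. It was -3.87 with dim signals set at that floor and -1.71 under normexp background correction (adjusted p = 0.00127). The normexp offset of 50 by itself narrows differences between signals as dim as these.

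The other Adcy3 probe (4212786 to 4213318) overlaps the first in position and is no independent measurement. It lay at -9.21 and -8.18 in the lines, against -3.29 and -3.52 in the splenocytes. By the same approximate bound it was 13.3-fold lower in the lines (fitted difference -5.29 ± 0.38, SE, limma adjusted p = 0.000797). Normexp moved this difference to -1.75.

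Adcy1, the calmodulin-stimulated cyclase of brain, gave low signals and probes that disagreed. The brightest of its 4 probes (mm8, chromosome 11, 7059949 to 7060008) lay at -5.29 and -4.87 in the lines, against -4.79 and -5.50 in the splenocytes. The groups overlapped although all 4 signals were well above background. The difference was 0.07 ± 0.31 (SE; limma adjusted p = 0.864), with a 95% interval of -0.77 to 0.90 that leaves changes of either sign. The next probe (7060308 to 7061323) lay at -6.64 and -6.98 in the lines, against -5.12 and -5.34 in the splenocytes. It was well above background in line 1 and not in line 2, and in both splenocyte samples. Its difference was -1.58 ± 0.19 (SE; limma adjusted p = 0.00292). Under normexp, with the same offset of 50, it was -0.79 and no longer called (limma adjusted p = 0.0557). The remaining Adcy1 probes (7049539 to 7049968 and 7077699 to 7077755) were not well above background on any array. Their processed signals ran from 2.12 to 9.68 in the lines and from 1.97 to 11.3 in the splenocytes. When the 2 tested Adcy1 probes were averaged, the difference was -0.76 (limma adjusted p = 0.0334), so the direction given for Adcy1 depends on the probe.

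Adcy8, the remaining calcium-stimulated isoform, was not well above background on any array. Its probe (mm8, chromosome 15, 64529050 to 64529109, minus strand) gave processed signals of 1.99 and 4.98 in the lines, against 2.17 and 2.51 in the splenocytes. Of the 64 cyclase values, 23 were surrogate values that the scanner software sets for dim spots. For Adcy2, Adcy5 and Adcy8 a level was thus not detectable in either group, which does not show that their RNA is absent.

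**Figure D2:**
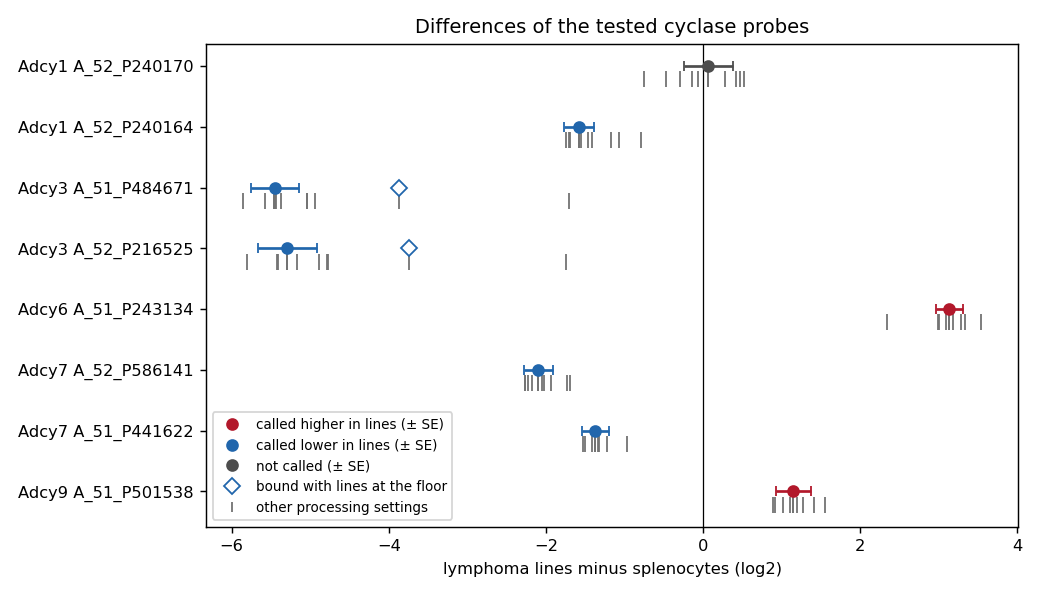
Difference between lymphoma lines and splenocytes on the log2 scale (horizontal axis) for the 8 tested cyclase probes (vertical axis), with its standard error. Diamonds are the approximate bound with the lines at the lowest signal well above background on their arrays. Grey ticks are the values under other processing settings. Adcy6 and Adcy9 stay right of 0 and Adcy3, Adcy7 and the dimmer Adcy1 probe left of it under every setting drawn, while the brighter Adcy1 probe falls on both sides.

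Between lines 1 and 2 the gap was 0.08 for Adcy6, -0.52 for Adcy9, -0.32 and -0.30 for the Adcy7 probes and -0.42 and 0.33 for the tested Adcy1 probes. The median absolute gap over all tested probes was 0.23 between the lines and 0.16 between the splenocyte samples, so that Adcy6 differed less between the lines than the typical probe and the other 7 cyclase probes more. The wider gaps of Adcy3, -0.82 and -1.03, lie between signals that were not well above background. No line has a replicate array, so these gaps carry no test.

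By the distance between profiles over the 4 arrays, each centred on its own mean and compared among called genes with the same pattern of detection, the genes closest to Adcy6 were Hars, the cytosolic histidyl-tRNA synthetase (distance 0.12, difference 3.21), Dfna5h (distance 0.12) and Inhbe, an activin subunit (distance 0.13). Closest to Adcy7 were D230012E17Rik (distance 0.026, difference -2.12) and Tcirg1, a subunit of the vacuolar proton pump (distance 0.061, difference -2.08). Adcy9 lay closest to Erlec1, a lectin of the endoplasmic reticulum, with Pdlim3 and Dnajb14 next (distances 0.078, 0.11 and 0.12). Adcy3 lay closest to Cryba4, a lens crystallin, with Cep290, a ciliary protein, and AK080157 next (distances 0.22, 0.30 and 0.36). With 4 arrays in 2 groups such distances say little beyond a like size of difference.

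The genes around the changed isoforms on the mm8 map differed between loci. Within 250000 bases of the Adcy3 probes 5 tested genes were found and 5 were lower in the lines, beside 32.8% of all gene names called lower. They were Cenpo, a centromere protein (-1.20), Ncoa1, a nuclear receptor coactivator (-1.09), Dnajc27 (-0.88), 2410017P09Rik (-0.78) and the transcript cluster TC1663189 (-3.82). Around Adcy6, of 23 genes 5 were higher, 5 lower and 13 not called. The gene nearest to Adcy6, 4930415O20Rik, differed by 1.32. The largest rise among the 23 was that of Wnt10b, a secreted Wnt ligand (6.19), and the largest fall that of Ddx23 (-3.33). Around Adcy7, of 9 genes 3 were higher and 3 lower. Those lower include the clone AK012436, which the array describes as an adenylate cyclase 7 product and which is then no separate neighbour. Brd7, a bromodomain protein beside Adcy7, was higher (0.96). Around Adcy9, of 7 genes 2 were higher, 2 lower and 3 not called. This window was chosen after the isoforms' values were seen.

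**Figure D3:**
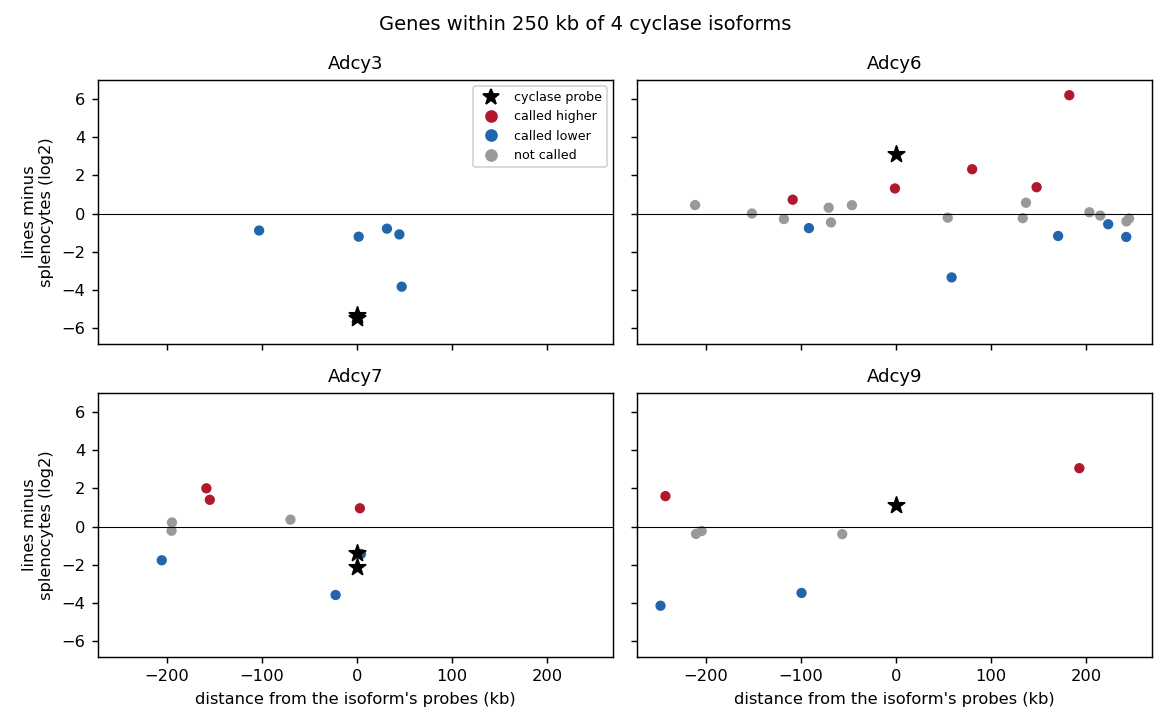
Difference between lymphoma lines and splenocytes (log2, vertical axis) of tested genes against their distance in kilobases from the probes of Adcy3, Adcy6, Adcy7 and Adcy9 (horizontal axis); stars are the cyclase probes and colours the calls. The 5 genes near Adcy3 lie below 0, while those near the other isoforms lie on both sides.

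Of the other genes of the cyclic AMP pathway, 10 lists by role held 133 genes, of which 104 were tested. Of these 28 were higher and 44 lower in the lines and 32 were not called, which is 69.2% called beside 63.5% of all gene names by their brightest tested probe. Their median difference was -0.37, beside -0.05 over all gene names. The counts by role, here and below, stand beside 30.7% of all gene names called higher and 32.8% lower. Among Gs-coupled receptors 2 of 11 were higher and 5 lower. Ptgir, the prostacyclin receptor, was higher, with an approximate bound of 99.8-fold that sets the splenocytes at their floor (limma adjusted p = 0.00133). Neither splenocyte sample was well above background, so Ptgir passed the filter through the lines alone. Among Gi-coupled receptors 2 of 14 were higher and 6 lower. P2ry12, an ADP receptor, was 5.57-fold higher, and S1pr1, a sphingosine-phosphate receptor, 10.4-fold lower.

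The G proteins that act on the cyclases moved both ways. Of 18 tested subunits and chaperones 6 were higher, 8 lower and 4 not called, beside 30.7% of all gene names called higher and 32.8% lower. Gng3, a gamma subunit, was 7.56-fold higher and Gpsm3, a binding partner of Gi, 2.39-fold lower. Gnb4, a beta subunit named after its value was seen, was lower (approximate bound of 14.9-fold) and was well above background in the splenocytes alone. Gnas, which encodes the stimulatory alpha subunit and was named after its value was seen, gave 22830 and 29202 in the lines, against 6168 and 3300 in the splenocytes, in processed signal. These are signals before scaling, and overall brightness differed between arrays. On the scaled values Gnas was 3.51-fold higher in the lines (limma adjusted p = 0.00119). The inhibitory subunits Gnai1 and Gnai2, chosen in the same way, were lower, with differences of -0.54 and -0.68, and the difference of Gnai3 was 0.31 (adjusted p = 0.130). Of the other tested alpha subunits in the list, Gnal was lower (difference -2.17, limma adjusted p = 0.00432) and was not well above background in line 1. Gnaz differed by 1.23 and was not called (limma adjusted p = 0.136). Of 18 calcium, kinase and scaffold regulators 9 were higher and 6 lower. Camk4, a calmodulin-dependent kinase, was 147-fold higher. This fold rests on dim splenocyte signals of 18.2 and 11.4, where the lowest signals well above background were 7.44 and 7.47. Rgs2, a regulator of G protein signalling that also binds cyclases, was 42.8-fold lower.

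Downstream of the cyclases, 4 of 13 cyclic AMP effectors were higher and 3 lower. Prkar2a, which holds protein kinase A inactive until cyclic AMP binds, was 8.50-fold higher and Rapgef2, a Rap exchange factor, 2.76-fold lower. The other effectors called lower were named after their values were seen. They were Pkib, an inhibitor of protein kinase A (approximate bound of 682-fold), and Rapgef4, a Rap exchange factor that binds cyclic AMP (approximate bound of 105-fold). Neither was well above background in a line, so both passed the filter through the splenocytes alone. Of 11 phosphodiesterases, which break cyclic AMP down, 2 were higher and 7 lower. Pde1c, which calmodulin stimulates, was 27.9-fold higher, and Pde2a, which cyclic GMP stimulates, 28.9-fold lower. Both folds rest on dim signals, 39.4 and 12.3 in the splenocytes for Pde1c and 38.1 and 42.0 in the lines for Pde2a. Abcc4, which exports cyclic AMP, was 4.06-fold higher, and Abcc5 was not called (0.07). Among 8 CREB factors and coactivators, Atf1 was higher (1.64-fold) and Creb1 and Ep300 lower (1.54-fold and 1.64-fold). Of 9 tested CREB target genes 8 were lower and none higher, with a median of -4.14; Dusp1, a MAP kinase phosphatase, was 82.1-fold lower. These targets also respond to other signals, and earlier results of these data were known when the list was made. Of the soluble adenylyl and guanylyl cyclases 2 were tested and Gucy1b2, a guanylyl cyclase subunit, was higher (difference 0.59); Adcy10, the soluble adenylyl cyclase, was not well above background on any array.

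**Figure D4:**
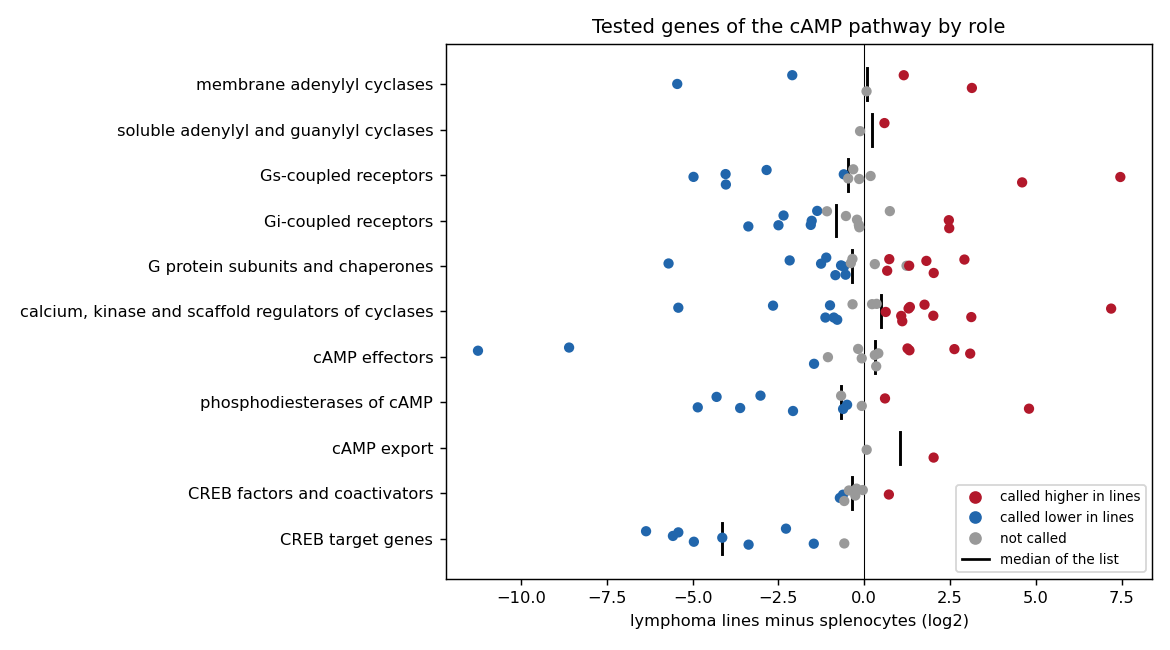
Difference between lymphoma lines and splenocytes (log2, horizontal axis) of each tested gene of the cyclic AMP pathway, by role (vertical axis), with bars at the median of each list and colours for the calls. The CREB target genes lie left of 0, with a median of -4.14. The cyclic AMP export list holds Abcc5 at 0.07 and Abcc4 at 2.02, and the other lists hold genes on both sides of 0.

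In bulk RNA, fewer cells of a type and less RNA per cell cannot be told apart. The B cell label held: 8 of 8 B cell markers were well above background on every array. Their summed scaled signal, in multiples of an array's 75th percentile, was 429 to 439 in the lines and 748 to 951 in the splenocytes. Of the markers of other cells, those of neutrophils, NK cells and monocytes were mostly lower in the lines, in the direction of Adcy3 and Adcy7. Neutrophil markers summed to 0.045 to 0.062 in the lines and 4.97 to 9.49 in the splenocytes, with 2 of 3 tested called lower and Elane not above background anywhere. NK cell markers summed to 0.43 to 0.57 in the lines and 1.41 to 1.43 in the splenocytes, with 4 of 5 lower, 1 higher and Ncr1 not above background anywhere. Of 8 macrophage and monocyte markers 7 were lower; their sum of 35.5 to 35.9 in the lines, against 6.01 to 7.61 in the splenocytes, was carried by Adgre1, which was 18.7-fold higher. T cell markers summed to 14.2 to 15.7 in the lines and 6.59 to 8.73 in the splenocytes, with 4 of 10 higher and 4 lower. Dendritic cell markers were higher in 3 and lower in 1 of 5, and plasma cell markers higher in 2 and lower in none of 4. Stroma and endothelium markers were higher in 2 and lower in 1 of 5, but summed to 0.45 to 0.47 in the lines and 1.63 to 1.70 in the splenocytes. Erythroid markers were lower in 2 and higher in none of 4, with sums of 0.26 to 0.36 in the lines and 1.885 to 1.894 in the splenocytes. None of 3 megakaryocyte and platelet markers was called, with sums of 2.24 to 3.13 in the lines and 2.26 to 2.90 in the splenocytes. These marker counts stand beside 30.7% of all gene names called higher and 32.8% lower. The part of these cells in the cyclase differences was not tested.

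The signal at the 75th percentile was 1122 and 1315 on the line arrays, against 1078 and 514 on the splenocyte arrays, and 60.9% to 66.6% of probes were well above background. No spot was saturated. All 4 arrays lay on 1 slide. Pearson's r across the tested probes, which are not independent replicates, was 0.991 between the lines, 0.992 between the splenocyte samples and 0.823 to 0.838 between groups. With 2 arrays in each group, precision is limited by their number.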

How the data were processed

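RNA of 2 lymphoma lines and 2 B220+ splenocyte samples was labelled with Cy3 and hybridised to 1 array each. Images were read with Agilent Feature Extraction 9.5, per the submitters' processing notes (9.5.1.1 per the file headers). The deposited processed signal is an intensity, background-subtracted and detrended within each array, with surrogates for dim spots and no scaling between arrays, per the file headers. The deposited flags mark spots above background, saturated or outlying. The deposited matrix holds the same intensity scaled to a common 75th percentile, as read from its values.

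Here, spots with outlier flags were left out (153 probes lost, none of a cyclase), values were log2 signal minus the log2 of the array's 75th percentile, and spots of a probe were averaged. Groups came from sample titles. Probes were compared with limma 3.58.1 (lmFit, eBayes) in R 4.3.3, which had 2 residual and 2.42 prior degrees of freedom; the fit was tested on simulated data. An isoform was represented by its brightest tested probe; every probe is given. Arrays that share a replicate number deviated from their group means with a correlation of 0.011, so the numbers were taken not to pair the samples. Pathway and marker names were updated from RefSeq by accession (24297 of 24859 RefSeq probes matched). In each pathway list, the called gene with the largest rise and the largest fall among those above background on all arrays was named, or the largest bound; 2 genes that these rules pick are not reported here. Alternatives covered background correction, scaling, filters, the variance model, probe choice, left-out arrays and a replicate block. Normexp was run with an offset of 50, so its values for dim probes also carry that offset. The isoforms and lists were chosen with earlier results of these data known.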

Additional observations from a re-analysis of the deposited data

How the results depend on the processing

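Over all alternatives run, Adcy6 ran from 2.35 to 3.54 and Adcy7 from -2.27 to -1.69, and their calls held in each. Adcy3 ran from -5.86 to -1.71; its call says nothing about stability, since it passed the filter through the splenocytes alone, and it was not tested where probes had to be above background on all 4 arrays. Adcy9 kept its direction (0.89 to 1.41 with each array omitted in turn) and lost its call without splenocyte sample 1. The brighter Adcy1 probe was not called in any alternative and changed sign: it was -0.47 under normexp, -0.061 with the percentile over probes above background on all arrays, and -0.29 to 0.42 over the omitted arrays. The mean of the 2 tested Adcy1 probes, another quantity, was -0.76 and called. The number of cyclase probes called, 7, was 4 with only probes above background on all 4 arrays and 4 with 1 probe a gene name, since fewer probes are tested there, and 6 to 7 over the omitted arrays. With a replicate block 7 probes were called, and no call on a cyclase probe changed. Setting dim signals at the floor was chosen after seeing the data and left 7 called. The slide could not be used as a block, since all arrays share it. The median difference over all tested probes, -0.01, was 0.40 after centring on the median, 0.14 after quantile normalization, -0.14 with the percentile over bright probes and -0.29 under normexp, and the share of called probes that were higher, 49.9%, ran from 43.9% to 64%. All changes are relative to these scalings. Dim signals limit Adcy2, Adcy4, Adcy5 and Adcy8, whose probes were tested only when the filter on dim probes was dropped.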
